A study of Mus musculus with 12 samples.

Results

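The genes described here are 48 DNA repair and checkpoint genes of the mouse, covering checkpoint kinases, the Fanconi anaemia pathway, homologous recombination, end joining, PARP and mismatch repair. They were chosen by gene symbol and not by their measured values. Of the 48, 44 had a probe set of their own on the array, out of 22180 genes so named, and all 44 were bright enough to be tested among 18652 genes. For Atr, the one member with more than 1 probe set, the probe set with the highest mean was used. Fanca and Rad54b share their probe sets with another gene, Xrcc2 and Rbbp8 were not found under their own symbols, and these 4 were not analysed here.

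Expression was measured in MP tumour cells, which model in the mouse the MYC-driven Group 3 form of medulloblastoma, a childhood cancer of the cerebellum. Cells were taken from the cerebella of NSG mice, dissociated and plated in neurocult medium with a proliferation supplement. LBH589 (panobinostat) inhibits histone deacetylases, enzymes that remove acetyl groups from histones and other proteins. The 4 groups were LBH589 at 25 nM for 6 h, DMSO (the solvent, 0.00025%) for 6 h, LBH589 at 25 nM for 12 h and DMSO at the same concentration for 12 h. Each group held 3 arrays, 1 culture from each of the tumours MP525, MP567 and MP570, so that every tumour gave 4 of the 12 arrays. All groups share the tumour model, the host strain and the culture, and no untreated culture is among them. As background, the published MP model carries MYC together with a dominant-negative p53, which the labels do not state, and NSG hosts carry a mutation of Prkdc and lack Il2rg. The level of a probe set does not show which Prkdc allele is transcribed. The design was made to learn how inhibition of histone deacetylases harms these cells.

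As background on the genes, a stalled replication fork activates the kinase ATR with its partner ATRIP and the activator TOPBP1, and ATR, through claspin, activates CHK1. A DNA break across both strands activates ATM and, through it, CHK2, and WEE1 restrains CDK1 and CDK2. Breaks are rejoined by end joining, in which the Ku proteins bind the ends, or are copied from the sister chromatid by homologous recombination, which needs BRCA1, BRCA2 and PALB2. The Fanconi anaemia pathway removes crosslinks between the strands by attaching ubiquitin to FANCD2 and FANCI. Many of these genes are transcribed most strongly in dividing cells.

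LBH589 cultures had lower levels of many of these genes, with more called at 12 h than at 6 h, and the largest falls were in Nbn, Chek1, Xrcc4, Xrcc5 and Wee1. Values are log2 expression values, so a difference of 1 is a 2-fold change, and each difference is LBH589 minus DMSO with its standard error (SE). Calls are those with an adjusted p below 0.05 in limma, a linear model fitted over all tested genes. At 6 h, 9 of the 44 members were called lower (7.31% of all tested genes were called lower), and at 12 h 14 (9.07% of all tested genes). None was called higher at 6 h, where 8.49% of all tested genes were, and none at 12 h, where 9.13% were. At an unadjusted p under 0.05 in limma, 13 members were lower and 3 higher at 6 h (28.2% of all tested genes in either direction), and 22 lower and 0 higher at 12 h (30.7%). Since the labels pair the arrays by tumour, the same fit was made with the tumour as a block, which removes level differences between tumours. At 6 h it called 20 members (34% of all tested genes), 15 lower (16%) and 5 higher (18%). At 12 h it called 28 (37.1%), 27 lower (18.5%) and 1 higher (18.6%). Over both times together, 17 members were called lower (14.4% of all tested genes) and 1, Lig4, higher (15.7%), and with the block 31 were called (45.9%), 26 lower (22.2%) and 5 higher (23.7%). The count without the block rested on few arrays. Without MP525 it was 3 at 6 h, 9 at 12 h and 11 over both times. Leaving out MP570 gave 4, 3 and 12. Without MP567 it was 7, 12 and 17. Of the 9 calls at 6 h and the 14 at 12 h, 3 and 3 held without each tumour in turn, and the other calls are given below with the tumours they rested on.

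The median difference of the 44 members was -0.12 at 6 h and -0.36 at 12 h, beside -0.02 and 0.01 over all tested genes. All 3 LBH589 arrays lay below all 3 DMSO arrays for 12 members at 6 h (16.5% of all tested genes) and for 23 at 12 h (15.4%). The reverse held for 4 members at 6 h, Brca1, Fancm, Xrcc3 and Lig4 (16.4% of all tested genes), and for Mus81 alone at 12 h (16.6%). Level was lower under LBH589 in all 6 tumour and time pairs for 20 members (18.7% of all tested genes) and higher in all 6 for 2 (19.7%). Called lower at both times were 8 members without the block (5.86% of all tested genes) and 15 with it (13.3%). In bulk RNA, fewer cells that express a gene and less of its RNA per cell cannot be told apart.

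**Figure D1:**
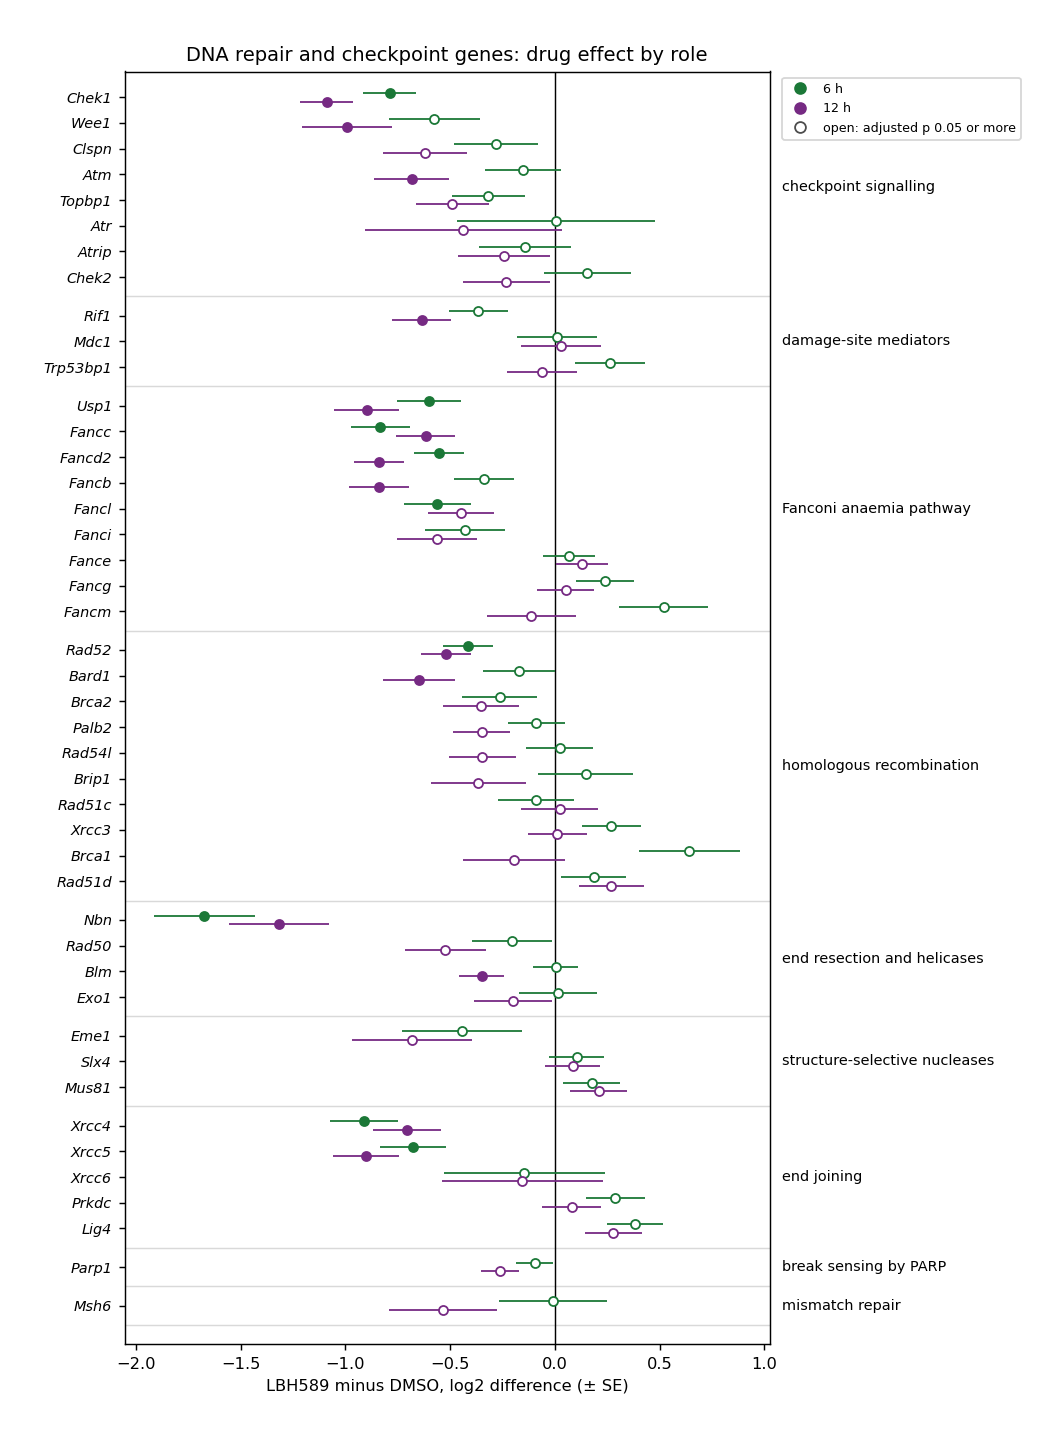
Difference of LBH589 minus DMSO for the 44 members, as log2 difference on the x axis, in rows grouped by role, with 6 h in green above 12 h in purple. Points are differences between means of 3 arrays, bars are ± SE, and filled points have an adjusted p under 0.05 without the tumour block. Nbn lies farthest left, at -1.67 and -1.32, and Brca1 lies at 0.64 at 6 h and at -0.20 at 12 h.

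The counts by role below stand against the same shares of all tested genes, 7.31% lower at 6 h and 9.07% at 12 h, and with the block 16% and 18.5%. Called higher with the block were 18% of all tested genes at 6 h and 18.6% at 12 h. Among the 8 genes of checkpoint signalling, 1 was called lower at 6 h and 3 at 12 h, and with the block 4 and 6. All 8 differences were below 0 at 12 h, with a median of -0.55, beside 9150 of the 18652 tested genes below 0. Chek1, the kinase that ATR activates, gave 9.59, 9.53 and 9.57 in LBH589 at 6 h, against 10.21, 10.48 and 10.37 in DMSO (MP525, MP567 and MP570, in that order here and below). At 12 h Chek1 gave 9.24, 9.02 and 8.85 in LBH589 and 10.09, 10.24 and 10.05 in DMSO. All LBH589 arrays were below all DMSO arrays at both times. The differences of Chek1 were -0.79 ± 0.13 at 6 h and -1.09 ± 0.13 at 12 h (adjusted p = 0.00176 and 0.000254), which are 1.73-fold and 2.13-fold lower. Both calls held without each array and without each tumour.

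Wee1 stood at 10.02, 10.53 and 10.08 in LBH589 at 6 h, against 10.75, 11.01 and 10.60 in DMSO. Its levels at 12 h were 9.49, 10.04 and 9.21 in LBH589 and 10.42, 10.81 and 10.49 in DMSO. The groups did not overlap at either time, and MP567 was the highest tumour in each group. Wee1 differed by -0.57 ± 0.22 at 6 h (limma adjusted p = 0.099, with the block 0.000373) and by -0.99 ± 0.22 at 12 h (adjusted p = 0.00834), a fall of 1.99-fold. Without MP525 or MP570 the unblocked 12 h call of Wee1 was lost (adjusted p up to 0.112), and the blocked calls held without each tumour.

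Atm, which responds to breaks, read 10.10, 9.99 and 9.89 in LBH589 at 6 h beside 10.30, 10.39 and 9.75 in DMSO. At 12 h Atm read 9.81, 9.78 and 9.49 in LBH589 beside 10.20, 10.64 and 10.28 in DMSO. The groups overlapped at 6 h and were apart at 12 h. Differences of Atm were -0.15 ± 0.18 and -0.68 ± 0.18 (adjusted p = 0.663 and 0.0212), and the 12 h call was lost when MP570 in LBH589 or MP567 in DMSO was omitted (adjusted p up to 0.0815), without any 1 of the tumours (up to 0.0997), and when arrays were centred on reference genes.

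Atr gave 9.34, 8.26 and 9.48 in LBH589 at 6 h and 9.55, 8.16 and 9.35 in DMSO. At 12 h Atr gave 9.19, 7.93 and 9.11 in LBH589, against 9.42, 8.50 and 9.62 in DMSO. MP567 was about 1 log2 unit below the other tumours in every group, which made the SE of the fit without the block 0.47. The difference of Atr was 0.01 at 6 h (95% confidence interval with the block -0.21 to 0.22) and -0.44 at 12 h, not called without the block (adjusted p = 0.6) and called with it (adjusted p = 0.00318). That blocked call was lost without MP570 (adjusted p = 0.0524).

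Topbp1 and Clspn, which help ATR to activate CHK1, were called at each time with the block only. Topbp1 differed by -0.32 ± 0.17 at 6 h and -0.49 ± 0.17 at 12 h (blocked adjusted p = 0.00298 and 9.9e-05). For Clspn the differences were -0.28 ± 0.20 and -0.62 ± 0.20 (blocked adjusted p = 0.0397 and 0.000202). Both blocked calls at 6 h were lost without MP525, with adjusted p = 0.0579 for Topbp1 and 0.18 for Clspn, and that of Clspn without each of the other tumours as well. Atrip and Chek2 were called at neither time in either fit, at -0.14 ± 0.22 and -0.24 ± 0.22 for Atrip and 0.15 ± 0.21 and -0.23 ± 0.21 for Chek2.

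Of the 3 mediators that gather at damaged chromatin, 1 was called lower at 12 h and none at 6 h. Rif1, which protects broken ends from resection, was -0.36 ± 0.14 at 6 h (adjusted p = 0.112, with the block 0.0214) and fell at 12 h, with -0.64 ± 0.14 (limma adjusted p = 0.00964, up to 0.104 without MP567 or MP570). The blocked call of Rif1 at 6 h was lost without MP525 and without MP567, with adjusted p = 0.0664 and 0.227. Trp53bp1, which recruits RIF1, was 0.26 ± 0.17 at 6 h, called higher with the block (adjusted p = 0.0232) and not called without it (adjusted p = 0.351). That blocked call was lost without any 1 of the tumours (adjusted p = 0.0538, 0.0928 and 0.148 without MP525, MP567 and MP570). At 12 h Trp53bp1 was -0.06 ± 0.17. Mdc1, the scaffold that reads phosphorylated histone H2AX, gave 0.01 and 0.03, with 95% confidence intervals of -0.41 to 0.43 and -0.39 to 0.45.

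Fanconi anaemia genes split into those that fell and those that did not. Of 9 measured, 4 were called lower at 6 h and 4 at 12 h, and with the block 5 and 6. With the block 2 of the 9 were called higher at 6 h, near the background of 18% of all tested genes. Medians of the 9 were -0.43 and -0.56. Fancd2, the protein that receives ubiquitin, gave 9.35, 9.42 and 9.45 in LBH589 at 6 h, against 9.95, 9.996 and 9.92 in DMSO. Fancd2 at 12 h gave 9.23, 9.49 and 9.11 in LBH589, against 9.98, 10.22 and 10.15 in DMSO. No LBH589 array reached a DMSO array at either time. Its differences were -0.55 ± 0.12 and -0.84 ± 0.12 (limma adjusted p = 0.00951 and 0.00081), or 1.47-fold and 1.79-fold lower. The 12 h call held without each array and each tumour, and that at 6 h was lost without MP525 or MP570 (adjusted p up to 0.113).

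Usp1, which removes that ubiquitin again, stood at 11.12, 10.89 and 10.75 in LBH589 and 11.57, 11.63 and 11.36 in DMSO at 6 h. Its 12 h values were 10.78, 10.58 and 10.20 in LBH589 and 11.45, 11.53 and 11.27 in DMSO. Treated and solvent arrays did not overlap. Usp1 differed by -0.60 ± 0.15 at 6 h and -0.90 ± 0.15 at 12 h (adjusted p = 0.0212 and 0.00214). The 6 h call was lost when MP567 or MP570 in LBH589, or MP525 or MP567 in DMSO, was omitted (adjusted p up to 0.087) and without any 1 of the tumours (up to 0.153), and that at 12 h held without each array and each tumour.

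Fancc, a subunit of the core complex that attaches the ubiquitin, read 6.85, 6.67 and 7.09 in LBH589 at 6 h and 7.88, 7.61 and 7.62 in DMSO. At 12 h Fancc read 7.01, 7.09 and 7.21 in LBH589 and 7.89, 7.46 and 7.82 in DMSO. It was one of the members whose difference at 12 h was smaller in size than at 6 h, -0.62 ± 0.14 against -0.83 ± 0.14 (adjusted p = 0.0106 and 0.00245). Calls of Fancc without the block were lost without MP525 at 6 h (adjusted p = 0.0661) and without MP525 or MP570 at 12 h (up to 0.146). Whether the effect differed between the times did not pass the test for any member.

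Fancb, another core subunit, gave 8.48, 8.30 and 8.55 in LBH589 at 6 h, against 8.74, 8.86 and 8.75 in DMSO. By 12 h it gave 8.04, 7.93 and 7.83 in LBH589, against 8.55, 9.11 and 8.66 in DMSO. The arrays were apart at both times, more widely at 12 h. Fancb was -0.34 ± 0.14 at 6 h, not called in either fit (adjusted p = 0.146 and, with the block, 0.0608), and fell at 12 h, with -0.84 ± 0.14 (adjusted p = 0.00221, and 0.0521 without MP570).

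Fancl, the ubiquitin ligase of the core complex, stood at 7.25, 7.37 and 7.55 in LBH589 and 7.79, 8.11 and 7.96 in DMSO at 6 h. Levels of Fancl at 12 h were 7.43, 7.38 and 7.06 in LBH589 and 7.48, 8.05 and 7.68 in DMSO. In MP525 the 12 h pair differed by only -0.05. Fancl fell at 6 h, with -0.56 ± 0.16 (adjusted p = 0.0327), a call lost when MP525 or MP567 in LBH589, or MP567 or MP570 in DMSO, was omitted (adjusted p up to 0.114), without any 1 of the tumours (up to 0.132) and with arrays centred on reference genes. At 12 h it was -0.45 ± 0.16, called with the block only (adjusted p = 0.0155), and not without MP567 or MP570 (adjusted p = 0.147 and 0.102).

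Fanci, the partner of FANCD2, was -0.43 ± 0.19 and -0.56 ± 0.19, called lower at both times with the block only (adjusted p = 0.0116 and 0.00175). Its 6 h call was lost without MP570 (adjusted p = 0.0817). Fancm, a DNA translocase that brings the core complex to stalled forks, gave 10.52, 10.84 and 10.35 in LBH589 at 6 h, against 10.07, 10.29 and 9.80 in DMSO. Its values at 12 h were 10.15, 10.27 and 9.49 in LBH589, against 10.07, 10.26 and 9.92 in DMSO. All treated arrays were above all solvent arrays at 6 h and overlapped them at 12 h. Fancm was 0.52 ± 0.21 at 6 h (adjusted p = 0.129, with the block 0.000958) and -0.11 ± 0.21 at 12 h (adjusted p = 0.782). Fancg, a core subunit, was 0.24 ± 0.14 at 6 h, called with the block only (adjusted p = 0.0456) and not when any tumour was left out (adjusted p = 0.205, 0.0674 and 0.236 without MP525, MP567 and MP570), and 0.05 ± 0.14 at 12 h. Fance, which links the core complex to FANCD2, was 0.07 ± 0.13 and 0.13 ± 0.13 and was not called.

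**Figure D2:**
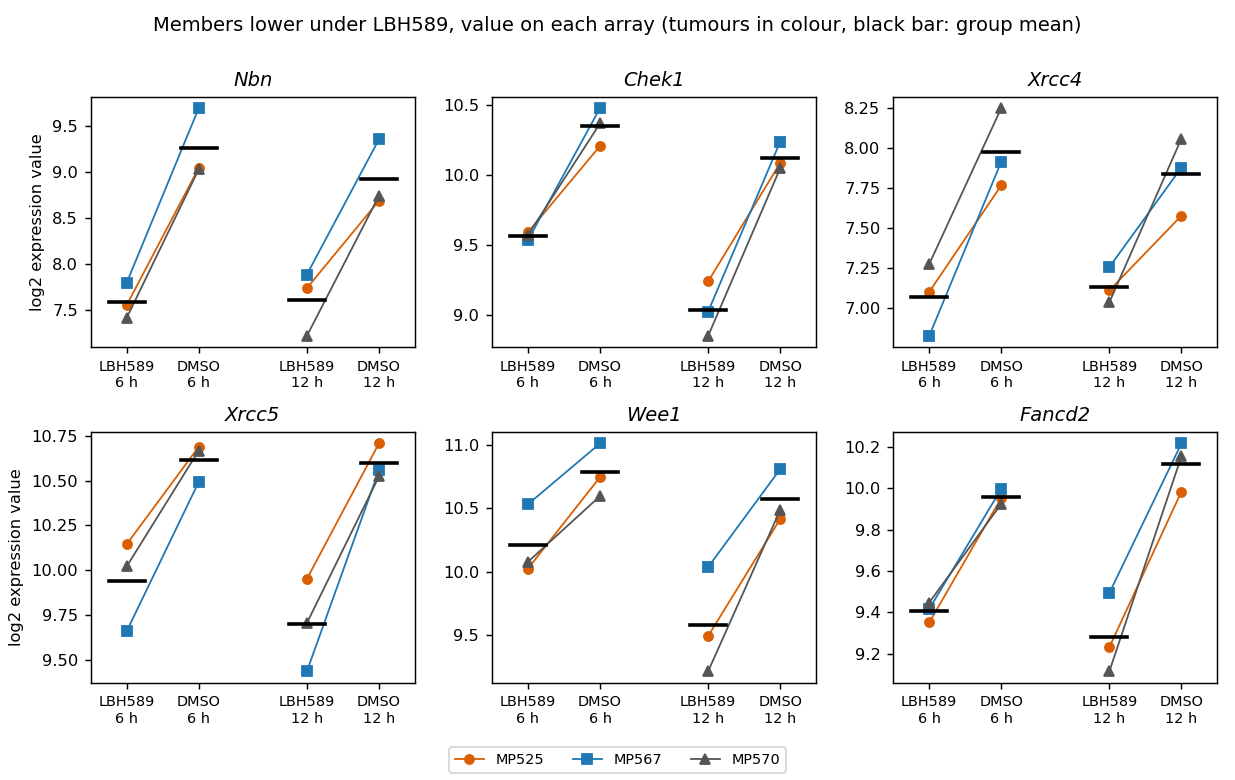
Log2 expression value on the y axis of 6 members on each of the 12 arrays, with LBH589 left of DMSO at 6 h and at 12 h on the x axis. Points of a tumour are joined, colours and shapes mark the tumours, and black bars are group means of 3 arrays. In Nbn, Chek1, Xrcc4, Xrcc5, Wee1 and Fancd2 all LBH589 points lie below all DMSO points at the same time.

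Of 10 homologous recombination genes measured, 1 was called lower at 6 h and 2 at 12 h, beside 7.31% and 9.07% of all tested genes, so that the count at 6 h was near the background. With the block 1 was called lower and 1 higher at 6 h (16% and 18% of all tested genes). At 12 h 6 were called lower and 1 higher with the block (18.5% and 18.6%). Brca1 was the member with the highest difference at 6 h. It gave 9.61, 9.97 and 9.53 in LBH589 at 6 h, against 8.96, 9.40 and 8.82 in DMSO. Brca1 at 12 h gave 8.93, 9.47 and 8.64 in LBH589, against 8.85, 9.56 and 9.22 in DMSO. At 6 h each tumour was higher under LBH589, by 0.65, 0.57 and 0.71. At 12 h the differences were 0.08, -0.09 and -0.57. The 6 h difference of Brca1 was 0.64 ± 0.24, or 1.56-fold, not called without the block (limma adjusted p = 0.1) and called with it (adjusted p = 0.000584), also without each tumour. At 12 h Brca1 was -0.20 ± 0.24 (adjusted p = 0.657), and the change of the drug effect between the times, -0.84 ± 0.34, did not pass the test (adjusted p = 1, with the block 0.131).

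Bard1, the partner of BRCA1 in a ubiquitin ligase, was -0.17 ± 0.17 at 6 h and fell at 12 h, with -0.65 ± 0.17 (adjusted p = 0.594 and 0.0217). The 12 h call of Bard1 was lost when MP525 or MP570 in LBH589, or MP525 or MP567 in DMSO, was omitted (adjusted p up to 0.0856), without MP525 or MP570 in all groups (up to 0.209) and with arrays centred on reference genes. Whether Brca1 and Bard1 differ from each other was not tested.

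Brca2, a central gene of this pathway, stood at 9.48, 9.17 and 9.36 in LBH589 and 9.99, 9.47 and 9.34 in DMSO at 6 h. At 12 h Brca2 stood at 9.46, 9.39 and 9.10 in LBH589 and 9.87, 9.63 and 9.51 in DMSO. The groups overlapped at 6 h and only just missed each other at 12 h. Differences of Brca2 were -0.26 ± 0.18 and -0.35 ± 0.18 (adjusted p = 0.396 and 0.215), with the 12 h one called with the block (adjusted p = 0.0194) and lost without MP525 or MP570 (adjusted p = 0.0891 and 0.0955).

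Rad52, which anneals single strands, fell at both times, by -0.42 ± 0.12 and -0.52 ± 0.12 (adjusted p = 0.0343 and 0.0104). The 6 h call of Rad52 was lost when MP525 or MP570 in LBH589, or MP567 or MP570 in DMSO, was omitted (adjusted p up to 0.137), without any 1 of the tumours (up to 0.201) and with arrays centred on their medians. The 12 h call was lost without MP567 or MP570 (adjusted p up to 0.153), and both calls with arrays centred on reference genes. Palb2, which joins BRCA1 to BRCA2, was -0.09 ± 0.14 and -0.35 ± 0.14. Brip1, a helicase that binds BRCA1, was 0.15 ± 0.23 and -0.37 ± 0.23, and Rad54l, a motor protein of recombination, was 0.02 ± 0.16 and -0.35 ± 0.16. These 3 were called lower at 12 h with the block only, with adjusted p = 0.011 for Palb2, 0.0467 for Brip1 and 0.0181 for Rad54l, and none kept that call without MP570 (adjusted p = 0.127, 0.281 and 0.166). Palb2 and Rad54l also lost it without MP525 (adjusted p = 0.0631 and 0.0581) and Brip1 without MP567 (adjusted p = 0.124). Rad51d was 0.19 ± 0.16 and 0.27 ± 0.16, called higher at 12 h with the block only (adjusted p = 0.0226) and not when any tumour was left out (adjusted p = 0.0575, 0.173 and 0.1 without MP525, MP567 and MP570). Rad51c was -0.09 ± 0.18 and 0.02 ± 0.18 and Xrcc3 0.27 ± 0.14 and 0.01 ± 0.14, and neither was called.

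The largest difference of all 44 was in Nbn, which encodes nibrin, the subunit of the MRE11, RAD50 and nibrin complex that recruits ATM to breaks. Nbn gave 7.55, 7.80 and 7.41 in LBH589 at 6 h, against 9.05, 9.70 and 9.03 in DMSO. At 12 h Nbn gave 7.74, 7.89 and 7.22 in LBH589, against 8.69, 9.36 and 8.74 in DMSO. No treated array reached a solvent array at either time, and MP567 was the highest tumour in each group. The differences of Nbn were -1.67 ± 0.24 and -1.32 ± 0.24 (limma adjusted p = 0.000952 and 0.00309), a fall of 3.19-fold and 2.49-fold. The 12 h call was lost without MP570 (adjusted p = 0.0512) and held with the block without each of them. Rad50, another subunit, was -0.20 ± 0.19 and -0.52 ± 0.19 (adjusted p = 0.564 and 0.0837), called lower at 12 h with the block (adjusted p = 0.00525). Blm, a helicase, was 0.00 ± 0.11 and -0.35 ± 0.11 (adjusted p = 0.0428 at 12 h), but that call was lost in 10 of the 12 omissions of 1 array (adjusted p up to 0.123), without any 1 of the tumours (up to 0.197) and with quantile normalization or either centring. Exo1, a nuclease that resects ends, was 0.01 ± 0.18 and -0.20 ± 0.18 and was not called.

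Of the 3 genes of nucleases that cut joined DNA strands, none was called without the block. Eme1, the partner of MUS81, was -0.44 ± 0.29 and -0.68 ± 0.29, called with the block only (adjusted p = 0.00258 and 8.83e-05). The 6 h call of Eme1 was lost without MP567 (adjusted p = 0.0646). Mus81 was 0.18 ± 0.14 and 0.21 ± 0.14 and the scaffold Slx4 0.11 ± 0.13 and 0.09 ± 0.13, with no call in either fit.

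In end joining, 2 of 5 genes fell at both times, Xrcc4 and Xrcc5, and none of the other 3 did. Xrcc5 (Ku80), which with Xrcc6 (Ku70) forms the ring that binds DNA ends, gave 10.15, 9.66 and 10.02 in LBH589 at 6 h, against 10.69, 10.49 and 10.67 in DMSO. Xrcc5 at 12 h gave 9.95, 9.43 and 9.70 in LBH589, against 10.71, 10.56 and 10.52 in DMSO. Every treated array was below every solvent array. Its differences were -0.68 ± 0.16 and -0.90 ± 0.16 (adjusted p = 0.0136 and 0.0025), or 1.60-fold and 1.87-fold lower. Without the block, the call at 6 h was lost without MP525 or MP570 (adjusted p up to 0.16) and that at 12 h without MP570 (0.0636).

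Xrcc6 stood at 9.54, 8.64 and 9.61 in LBH589 and 9.71, 8.76 and 9.76 in DMSO at 6 h. At 12 h Xrcc6 stood at 9.58, 8.49 and 9.51 in LBH589 and 9.60, 8.79 and 9.64 in DMSO. MP567 was well below the other tumours in each group. The difference of Xrcc6 was -0.15 at both times, called in neither fit, and its 95% confidence intervals with the block were -0.33 to 0.04 and -0.34 to 0.03. A test between the Ku genes was not made.

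Xrcc4, the scaffold of DNA ligase IV, read 7.10, 6.82 and 7.27 in LBH589 at 6 h, against 7.77, 7.91 and 8.25 in DMSO. Its 12 h readings were 7.11, 7.25 and 7.03 in LBH589 and 7.58, 7.88 and 8.06 in DMSO. The groups were apart at both times. Its differences were -0.91 ± 0.16 at 6 h and -0.70 ± 0.16 at 12 h (adjusted p = 0.00319 and 0.0109), or 1.88-fold and 1.63-fold lower. The unblocked 12 h call of Xrcc4 was lost without MP567 or MP570 (adjusted p up to 0.0872).

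Lig4, the ligase itself, gave 9.49, 9.45 and 9.49 in LBH589 at 6 h, against 9.04, 9.19 and 9.05 in DMSO. Lig4 at 12 h gave 9.45, 9.31 and 9.20 in LBH589, against 8.94, 9.33 and 8.85 in DMSO. In 5 of 6 pairs it was higher under LBH589. Lig4 was 0.38 ± 0.13 at 6 h and 0.28 ± 0.13 at 12 h, called with the block at 6 h only (adjusted p = 0.0135, and 0.0927 and 0.106 without MP525 and MP570) and called over both times without it (0.33 ± 0.10, adjusted p = 0.0202). That call over both times was lost without the 12 h DMSO array of MP525 or of MP570 (adjusted p up to 0.0518) and without either of these tumours (up to 0.228). Prkdc, the catalytic subunit of DNA-dependent protein kinase, was 0.29 ± 0.14 and 0.08 ± 0.14 and was not called.

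Parp1, which detects breaks and marks them with poly(ADP-ribose), gave 11.56, 11.59 and 11.45 in LBH589 at 6 h and 11.61, 11.68 and 11.59 in DMSO. At 12 h Parp1 gave 11.37, 11.41 and 11.21 in LBH589 and 11.54, 11.71 and 11.53 in DMSO. The arrays did not overlap at either time, at 6 h by less than the rounding, and the differences were small, -0.10 ± 0.09 and -0.26 ± 0.09. Parp1 was called at 12 h with the block only (adjusted p = 0.00358, without it 0.0618), and that call was lost without MP570 (adjusted p = 0.0656).

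Msh6, which recognises mismatches, stood at 9.63, 9.85 and 9.40 in LBH589 and 9.69, 9.85 and 9.37 in DMSO at 6 h. Msh6 at 12 h stood at 9.41, 9.36 and 8.58 in LBH589 and 9.64, 10.08 and 9.22 in DMSO. The tumours' differences were -0.06, 0.01 and 0.03 at 6 h and -0.23, -0.72 and -0.64 at 12 h. The differences of Msh6 were -0.01 ± 0.26 and -0.53 ± 0.26 (adjusted p = 0.991 and 0.191), with the 12 h one called with the block (adjusted p = 0.00228) and kept without each tumour.

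**Figure D3:**
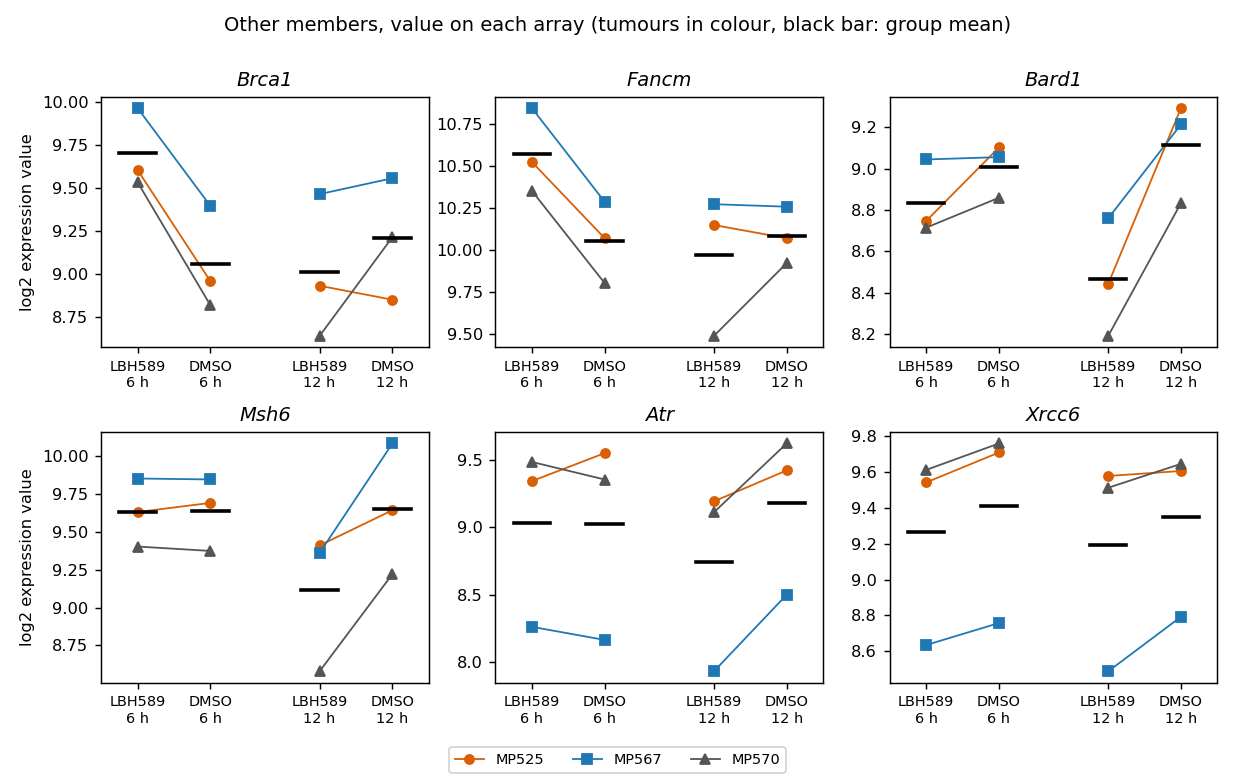
Log2 expression value on the y axis of 6 further members on each of the 12 arrays, with LBH589 left of DMSO at 6 h and at 12 h on the x axis. Points of a tumour are joined and black bars are group means of 3 arrays. Brca1 and Fancm lie higher under LBH589 at 6 h and overlap at 12 h, Bard1 and Msh6 are lower in each tumour at 12 h, and in Atr and Xrcc6 MP567 lies below the other tumours.

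Promoter sequence is shown for the 4 called members with the largest differences over both times that have an entry in the RefSeq promoter table (GRCm38.p6). These 4 are among the 8 members called lower at both times without the block. Each is the strand of the gene, 5′ to 3′, from 250 bases before the start to 50 after it. Capitals mark matches to any of 3 motifs searched on both strands: an E2F site (TTTCGCGC, TTTGGCGC or TTTCCCGC), a CCAAT box (CCAAT) and a CHR element (TTTGAA or TTTAAA). No match overlapped another in these windows. Nbn, Wee1 and Usp1 are named only.
Chek1 promoter, chr9:36726609-36726908, minus strand: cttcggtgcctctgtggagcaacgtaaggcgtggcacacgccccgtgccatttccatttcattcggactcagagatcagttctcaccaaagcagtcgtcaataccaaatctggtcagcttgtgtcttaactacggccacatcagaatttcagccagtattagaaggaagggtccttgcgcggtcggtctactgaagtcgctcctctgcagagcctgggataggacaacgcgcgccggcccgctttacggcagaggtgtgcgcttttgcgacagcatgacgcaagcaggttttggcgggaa
Xrcc4 promoter, chr13:90089559-90089858, minus strand: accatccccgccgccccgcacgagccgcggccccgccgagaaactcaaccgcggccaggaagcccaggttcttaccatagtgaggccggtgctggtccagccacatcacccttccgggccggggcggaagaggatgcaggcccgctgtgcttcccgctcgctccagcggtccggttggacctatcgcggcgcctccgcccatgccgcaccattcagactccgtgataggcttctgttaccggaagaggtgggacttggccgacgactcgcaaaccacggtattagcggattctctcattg
Xrcc5 promoter, chr1:72307171-72307470, plus strand: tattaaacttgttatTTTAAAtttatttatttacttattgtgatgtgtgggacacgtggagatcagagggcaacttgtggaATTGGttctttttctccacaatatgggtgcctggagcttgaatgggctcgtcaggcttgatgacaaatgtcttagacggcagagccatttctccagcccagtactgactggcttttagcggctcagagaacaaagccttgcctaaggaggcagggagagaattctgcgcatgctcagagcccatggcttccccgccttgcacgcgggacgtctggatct
Fancc promoter, chr13:63431696-63431995, minus strand: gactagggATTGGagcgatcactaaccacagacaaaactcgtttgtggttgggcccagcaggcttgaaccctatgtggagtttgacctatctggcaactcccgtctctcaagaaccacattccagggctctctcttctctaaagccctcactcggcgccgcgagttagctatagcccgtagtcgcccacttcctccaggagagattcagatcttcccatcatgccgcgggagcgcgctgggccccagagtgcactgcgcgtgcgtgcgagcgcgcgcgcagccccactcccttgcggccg

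Xrcc5 held a CHR match, TTTAAA, at position -235 from the start, and these letters read the same on both strands. Xrcc5 also held a CCAAT match on the opposite strand at -169. Fancc held 1 CCAAT match, on the opposite strand at -242. For Chek1 and Xrcc4 none of the exact letters searched is in the window. The Chek1 window ends in tttggcgggaa. There TTTGGCGG differs from the searched TTTGGCGC in its last letter. The final gcgggaa is GCGGGAAA, the opposite-strand form of TTTCCCGC, without its last letter. The next base lies outside the window, so a match across that end could not be seen. The table had a window for 35 of the 44 members. E2F letters were in 10 of the 35 (28.6%), beside 1.91% of all 27025 genes in the table, which are not limited to the tested genes. Of the 15 members called lower at 6 h or 12 h without the block, 10 had a window, and 1 of these held E2F letters. Chek1 was counted among those without. CCAAT was in 54.3% of the 35 and 37.9% of all genes, and CHR letters were in 11.4% and 27.8%. These matches are a description of letters and not of factor binding. The 10 members with E2F letters were Bard1, Brca2, Chek2, Clspn, Fancg, Mdc1, Msh6, Rad51c, Topbp1 and Xrcc6. Shown are the 5 of them that were called lower at 12 h in either fit, as 40 bases around the match in capitals, on the strand of the gene, and this set was picked with the values in view.
Bard1, chr1:71103158-71103197, minus strand: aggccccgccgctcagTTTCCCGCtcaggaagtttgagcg
Brca2, chr5:150522437-150522476, plus strand: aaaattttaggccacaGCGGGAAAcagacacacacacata
Clspn, chr4:126556985-126557024, plus strand: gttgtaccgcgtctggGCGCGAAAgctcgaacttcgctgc
Msh6, chr17:87975049-87975088, plus strand: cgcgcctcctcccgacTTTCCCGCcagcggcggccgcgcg
Topbp1, chr9:103305182-103305221, plus strand: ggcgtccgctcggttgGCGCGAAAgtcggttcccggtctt

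At 12 h these 5 differed by -0.65 (Bard1), -0.35 (Brca2), -0.62 (Clspn), -0.53 (Msh6) and -0.49 (Topbp1). The other 5 with E2F letters lay between -0.23 (Chek2) and 0.05 (Fancg) and were called in neither fit at 12 h.

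Time was compared in its own right. None of the 44 members, and none of all tested genes (0%), passed the limma test for a drug effect that differed between 12 h and 6 h, and with the block 0 members and 0.0107% of all tested genes did. At an unadjusted p under 0.05, 3 members did, Brca1, Fancb and Blm, all with the lower difference at 12 h (2.63% of all tested genes), and 15 with the block (9.27% of all tested genes). In DMSO no member was called between 12 h and 6 h in either fit (0.0214% of all tested genes, with the block 0.311%). At an unadjusted p under 0.05 in limma there were 0 (2.21% of all tested genes), and with the block 2 higher and 3 lower (7.11% of all tested genes in either direction). After adjustment, 0.22% and 0.0911% of all tested genes were called higher and lower with the block. In LBH589 no member was called without the block (0% of all tested genes), although 11 were lower at 12 h at an unadjusted p under 0.05 (7.59% of all tested genes in either direction). With the block 7 were called, all lower at 12 h (1.99% of all tested genes were called, 0.724% higher and 1.27% lower): Chek1, Wee1, Fancm, Usp1, Brca1, Exo1 and Msh6. The largest was Brca1, at 9.01 ± 0.42 in LBH589 at 12 h and 9.70 ± 0.23 in LBH589 at 6 h (SD, n = 3), a difference of -0.69 (limma adjusted p with the block = 0.0143). Wee1 followed with -0.63, Fancm with -0.60 and Chek1 with -0.53. All 7 calls were lost without MP570, and none of the 7 held without each tumour. The drug effects at the times and these changes share arrays and are not independent.

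The tumours were compared in level and in response. MP567 had the highest mean level for 26 members, MP570 for 13 and MP525 for 5. Over all tested genes those shares were 38.8%, 31.1% and 30.1%. The range of the tumours' means had a median of 0.34 log2 units over the members and 0.22 over all tested genes. The widest were Atr, with means of 9.38, 8.21 and 9.39 in MP525, MP567 and MP570, and Xrcc6, with 9.61, 8.67 and 9.63.

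Within each tumour, the median difference of the members at 6 h was -0.18 in MP525, -0.25 in MP567 and 0.01 in MP570. At 6 h 31, 29 and 21 of 44 were below 0 (50.1%, 49.8% and 54.9% of all tested genes). At 12 h the medians were -0.26, -0.37 and -0.53, with 32, 35 and 39 of 44 below 0 (53.3%, 52.5% and 42% of all tested genes). The median of all tested genes in the same pairs lay between -0.04 and 0.07. MP570 thus had the median nearest 0 at 6 h and the lowest at 12 h, which is 1 pair of arrays at each time and was not tested.

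Whether the drug effect differed between tumours was tested over both times, with the arrays at 6 h and 12 h as repeats. No member was called by limma's moderated F test (4.35% of all tested genes were), and 8 members had an unadjusted p under 0.05 (18.2%, beside 19.6% of all tested genes). The lowest adjusted p was 0.0545, for Rad50, which differed by -0.27, -0.56 and 0.22 at 6 h and by -0.52, -0.73 and -0.32 at 12 h in MP525, MP567 and MP570. Chek2 came next (adjusted p = 0.0683), at 0.34, -0.28 and 0.41 at 6 h and 0.25, -0.64 and -0.31 at 12 h.

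**Figure D4:**
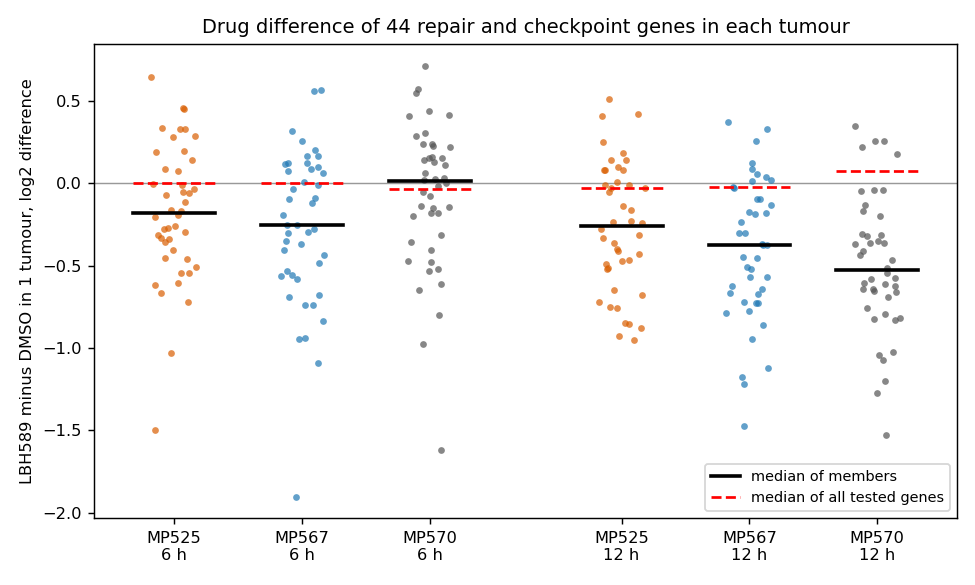
Difference of LBH589 minus DMSO in 1 tumour at 1 time, on the y axis as log2 difference, with a point for each of the 44 members and a column for each tumour and time on the x axis. Black lines are medians of the members and dashed red lines medians of all tested genes. At 12 h the black lines lie at -0.26, -0.37 and -0.53, and at 6 h that of MP570 lies at 0.01.

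Other genes of the same pathways were described from lists, 84 genes on the array of 95 listed. Of these 84, 11 were called lower and 6 higher at 6 h, and 22 lower and 2 higher at 12 h. Of all tested genes 7.31% were lower and 8.49% higher at 6 h, and 9.07% and 9.13% at 12 h. With the block the counts were 31 lower and 15 higher at 6 h (16% and 18% of all tested genes), and 38 and 10 at 12 h (18.5% and 18.6%). The higher count with the block at 6 h was near its background. Median differences were -0.15 and -0.26. In the recombination list of 19, 1 was called lower and 1 higher at 6 h, and 6 and 0 at 12 h. Over both times together 6 of these 19 were called lower and 5 higher, beside 14.4% and 15.7% of all tested genes, with medians of -0.02 at 6 h and -0.26 at 12 h. The largest fall over both times was in Dna2, a nuclease and helicase of end resection, with -0.95 and -1.25 (adjusted p = 0.0193 and 0.00384). Gen1, which cuts Holliday junctions, was -0.28 at 6 h and fell at 12 h, with -1.08 (adjusted p = 0.000526). Rad51ap1 fell at 12 h, with -0.63 (adjusted p = 0.0168). Without overlap at both times, Rad51b, Recql and Recql4 lay above DMSO, and Dna2, Gen1, Rad51ap1, Fignl1, Mre11a and Hells lay below it. Rpa1 and Top3a lay above DMSO without overlap at 6 h only. Their means at 6 h were 10.55 and 9.78 in LBH589 and 9.94 and 9.19 in DMSO. Of all tested genes 16.4% lay above and 16.5% below without overlap at 6 h, and 16.6% and 15.4% at 12 h. The share at both times was not counted.

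In the checkpoint list, 4 of 12 were called lower at 6 h and 6 at 12 h, with 1 higher at 6 h. Tlk1, a kinase that CHK1 restrains, was -0.70 and -0.94 (adjusted p = 0.00877 and 0.0014). Cdc25a, a phosphatase that reverses the work of WEE1, was -0.59 and -0.92 (adjusted p = 0.0302 and 0.0026). Cdc25c, of the same list, was above DMSO without overlap at 6 h, with means of 9.72 in LBH589 and 9.17 in DMSO. At 12 h Cdc25c overlapped, with 9.26 and 9.15. Hus1, part of the clamp that helps to activate ATR, was -0.44 and -0.82 (adjusted p = 0.0226 and 0.000697). In the Fanconi list of 9, Fancf, a core subunit, fell, with -0.67 and -0.40 (adjusted p = 0.00307 and 0.0372). Ube2t, the ubiquitin-conjugating enzyme that works with FANCL, rose by 0.49 at 6 h (adjusted p = 0.0475) and was 0.32 at 12 h (adjusted p = 0.172).

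In the excision repair lists, 1 of 10 genes of base excision and 2 of 9 of nucleotide excision were called lower at 6 h, and 2 and 2 at 12 h (7.31% and 9.07% of all tested genes). None was called higher at either time. Over both times 2 of the 9 nucleotide excision genes were called lower and 2 higher, Ercc2 and Xpc, at 0.60 and 0.32 (adjusted p = 0.0271 and 0.0158), both named after their values were seen. Parp2 fell, with -0.79 and -0.67 (adjusted p = 0.00941 and 0.0186), and Neil3, a glycosylase, was -0.50 and -0.70, called at 12 h (adjusted p = 0.0226). Ercc6, which couples repair to transcription, fell, with -0.57 and -0.45 (adjusted p = 0.00994 and 0.0267), and Rad23b fell, with -0.28 and -0.37 (adjusted p = 0.0404 and 0.00999). In mismatch repair, 1 of 5 was called lower at each time, Msh3, at -0.41 and -0.44 (adjusted p = 0.0172 and 0.01). Pms2 rose by 0.37 at 6 h (adjusted p = 0.0374) and was 0.06 at 12 h.

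Of 13 ubiquitin and chromatin genes of the break response, 1 was called lower and 1 higher at 6 h, and 3 lower and 1 higher at 12 h. Medians were -0.15 and -0.41, with 11 of 13 below 0 at each time. Of the 18652 tested genes, 9983 were below 0 at 6 h and 9150 at 12 h. The gene of this list called higher at both times was Mad2l2. Mad2l2 (REV7), part of the shieldin complex that limits end resection, rose by 1.21 and 1.13 (limma adjusted p = 0.00463 and 0.00563). In the end joining list of 7, 1 was called higher and none lower at 6 h, and 1 higher and 1 lower at 12 h. Aplf, an end joining factor, rose by 0.79 and 0.48 (adjusted p = 0.00207 and 0.025). Lig3, a ligase of the alternative route, was -0.58 and -0.83, called at 12 h (adjusted p = 0.0265). In the break response list, Abraxas1 and Brcc3, of a complex that binds BRCA1, were -0.49 and -0.50 (adjusted p = 0.0253 and 0.0199) and -0.31 and -0.55 (adjusted p = 0.12 and 0.00927).

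**Figure D5:**
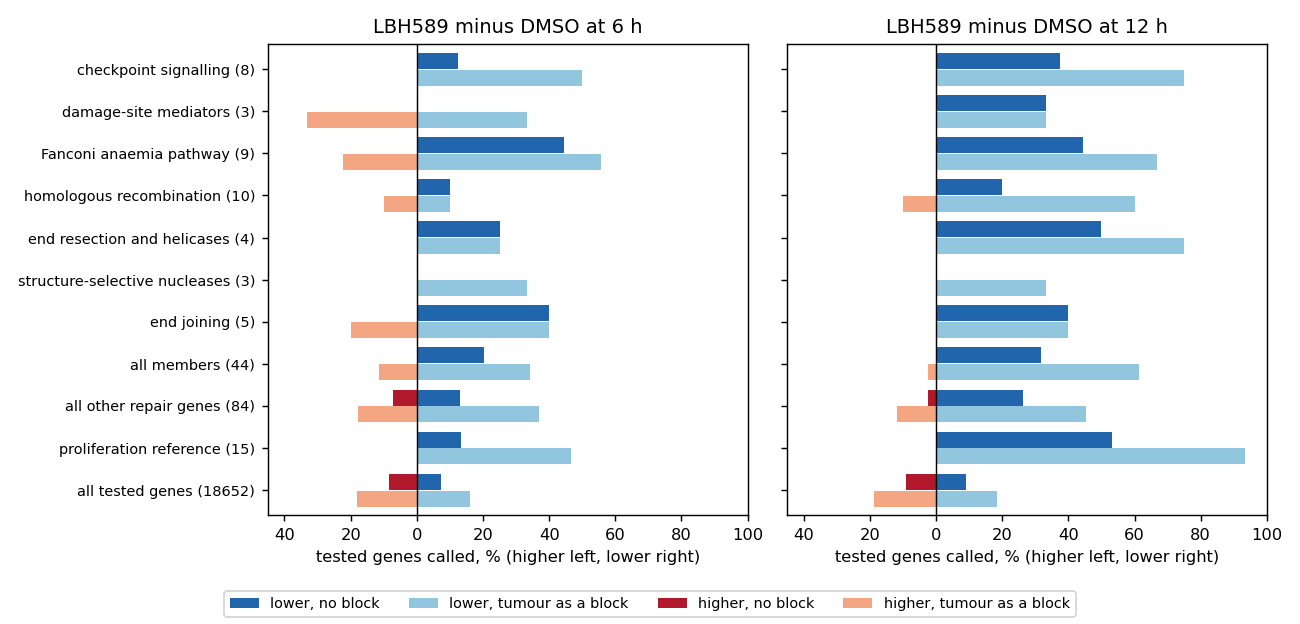
Percent of tested genes called, on the x axis, with called higher drawn to the left of 0 and called lower to the right, for each role of the members, all members, all other repair genes, the proliferation genes and all tested genes on the y axis, at 6 h and at 12 h. Dark bars are the fit without and light bars with the tumour as a block, and the number tested stands in brackets. At 12 h 14 of 44 members and 8 of 15 proliferation genes were called lower without the block, beside 9.07% of all tested genes.

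Proliferation genes were counted in the same way. Of 15 proliferation genes on the array (among them Mki67, Top2a, Pcna and the MCM helicase genes), 2 were called lower at 6 h and 8 at 12 h, and with the block 7 and 14 (of all tested genes 7.31% and 9.07%, with the block 16% and 18.5%). None was called higher in either fit, and medians were -0.23 and -0.57. Their part in the result was not tested.

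The arrays were read for markers of neural progenitors and of the Group 3 model (Myc, Prom1, Nes, Sox2, Npr3, Otx2, Olig2 and Olig3). All 8 were above the array's 25th percentile on all 12 arrays. So were the 5 astrocyte, 4 oligodendrocyte, 4 endothelial, 4 fibroblast and mural and 5 mature neuron markers, so this measure does not tell the labelled cell type from others. The summed level of the 8 was lower under LBH589. It ranged from 11.46 to 11.87 in LBH589 and from 12.27 to 13.03 in DMSO at 6 h, and from 11.53 to 12.06 in LBH589 and from 12.35 to 12.96 in DMSO at 12 h. Of the 8, Olig3, Npr3 and Prom1 were below DMSO without overlap at both times, at -2.45 and -2.40 for Olig3, -1.63 and -1.61 for Npr3 and -0.56 and -0.98 for Prom1. The other 5 overlapped, among them Nes (0.77 and 1.19) and Olig2 (0.63 and 0.42), which were called higher with the block only, and Myc (0.09 and 0.21), which was not called. Of the microglia and macrophage markers, 5 of 6 were above the percentile on all arrays. Their summed level was 9.63 to 9.78 in LBH589 and 9.82 to 9.95 in DMSO at 6 h and overlapped at 12 h. Singly, Ptprc was below DMSO without overlap at both times, but did not exceed the percentile on 6 arrays. Itgam and P2ry12 were below DMSO without overlap at 6 h only, and Aif1 at 12 h only. Cx3cr1 and Csf1r overlapped at both times. The summed oligodendrocyte markers overlapped at 6 h and were at 10.12 to 10.27 in LBH589 and 9.84 to 10.09 in DMSO at 12 h. Of these markers Cnp alone was above DMSO without overlap, at both times. Its means were 8.28 in LBH589 and 7.52 in DMSO at 6 h, and 8.49 and 7.47 at 12 h. Mbp, Mog and Mag overlapped at both times. The summed markers of astrocytes, endothelium, fibroblasts and mural cells, and mature neurons overlapped between the groups at both times. Some single markers of these lists did not overlap. Neurod1 was below DMSO at both times, with means of 8.41 in LBH589 and 9.12 in DMSO at 6 h, and 8.44 and 9.17 at 12 h. In the same order, Syt1 (8.75 and 8.21, then 9.26 and 8.47) and Kdr (8.40 and 7.59, then 8.29 and 7.57) were above DMSO. Rbfox3 was below DMSO without overlap at 12 h. The other markers of these lists overlapped at both times. The part of these lists in the result was not tested.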

How the data were processed

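Total RNA of 12 cultures was hybridised to whole-transcript Affymetrix arrays with biotin label, 1 array per culture, per the labels' protocols. The deposited table holds 41345 probe sets with a log2 level on each array, made by the authors, and the log base was read from their range, 1.50 to 14.5. Per the submitters' processing notes the program was Agilent Feature Extraction 10.7.3.1, which belongs to another maker's arrays. The summarisation and normalization are not given in the sources used here. Medians of the arrays were between 7.10 and 7.21, and nothing further was normalised. The number of arrays limits the precision.

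By the platform annotation 23521 probe sets name 1 gene, 1814 several and 16010 none listed. Symbols of 23328 were updated through a RefSeq table. The probe set with the highest mean was kept for each of 22180 genes, and 18652 genes above the 25th percentile of their array on at least 3 arrays were tested. Groups follow the labelled treatment and time. Differences were estimated from the means of the 4 groups, all in the same model (limma 3.58.1, R 4.3.3, eBayes with trend, 8 residual degrees of freedom), two-sided, with Benjamini-Hochberg adjustment over the 18652 genes. The step was tested on simulated data. The difference between tumours was a moderated F test.

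By the labels, every tumour has an array in each group. Deviations from group means of the 18 pairs of arrays of 1 tumour correlated at 0.450 to 0.805, and each of the 12 arrays had its closest match in its tumour. Arrays that share neither tumour nor group correlated at -0.51 to -0.0577. Deviations within a group cancel out over its tumours, so this negative range is tied to the positive one and is not separate evidence. A blocked fit on the tumour had 6 residual degrees of freedom, and is quoted wherever a call depends on it.

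Every array value is given for Chek1, Wee1, Brca1, Brca2, Fancd2, Xrcc5, Xrcc6, Msh6, Parp1, Atm and Atr and for the 10 called members with the largest difference over both times. Fancm and Lig4 were added after their values were seen. Other members called in either fit have their difference, and of each other list at most 3 called genes are named by rule. Further genes of those lists were named after their values were seen. Alternatives were a fixed or random tumour block, quantile normalization, centring on array medians or on 8 reference genes, other filters on dim genes, the mean of probe sets, no trend, and each array or tumour left out. Leaving tumours out of the blocked fit was added after seeing the data. The members and lists were chosen with earlier results of these data known. Scan dates and batches are not known from the sources used here.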

Additional observations from a re-analysis of the deposited data

How the results depend on the processing

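No called difference turned round in sign among the alternatives run. The tumour as a fixed replicate block gave 15 lower and 5 higher members at 6 h, 27 and 1 at 12 h, and 26 and 5 over both times. As a random block it gave 3 higher at 6 h, 25 lower at 12 h and 2 higher over both times. With the block and MP525, MP567 or MP570 left out, 2, 4 and 2 members were higher at 6 h. Without MP570 15 were lower at 6 h, and without MP525 and MP567 25 and 26 were lower at 12 h. Without MP567 1 was higher at 12 h, and without MP567 or MP570 4 were higher over both times. Of the blocked calls, 10 of 15 lower and 2 of 5 higher at 6 h, and 20 of 27 lower at 12 h, held without each tumour. The blocked fit called 7 members lower at 12 h than at 6 h in LBH589, and 2 without MP567. A drug effect that differs between tumours was called for 1 member after quantile normalization and for 1 with the filter at the 50th percentile.

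Leaving out 1 array or 1 tumour without the block, members called lower ranged from 3 to 10 at 6 h, 3 to 15 at 12 h and 11 to 18 over both times. Those called higher ranged from 0 to 1 at each time and over both. Counts for the change of the drug effect and for time in either treatment stayed at 0, and for tumours ranged from 0 to 1. Of the 9 members called at 6 h and 14 at 12 h, 6 and 11 kept the call without each array, and 3 and 3 without each tumour: Chek1, Nbn and Xrcc4 at 6 h, and Chek1, Fancd2 and Usp1 at 12 h.

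Centring on reference genes moved the median of all tested genes at 12 h to 0.14, against 0.01 as deposited. It called 2785 genes higher and 1049 lower at 12 h, against 1703 and 1692, and 1907 and 1003 at 6 h, against 1584 and 1364. Members called lower were then 7 at 6 h and 10 at 12 h, with a median of -0.06 and -0.23, and 2 were higher over both times. With 3 arrays per group the precision of a single gene is limited by the number of arrays, and a difference that was not called is not shown to be absent.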
